A study of Saccharomyces cerevisiae with 16 samples.

Results

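The 29 pairs of duplicated genes for proteins of the large ribosomal subunit of the yeast Saccharomyces cerevisiae, RPL1 to RPL37, were followed in sequencing of RNA fragments that carry a 5′ phosphate. The members were 58 genes, an A and a B copy for each pair, taken by name from a list of paralog pairs. All 58 were found among the 5696 host gene rows of the deposited count table. They lie on 14 chromosomes, and in 3 pairs (RPL19 on chromosome II, RPL24 on chromosome VII and RPL35 on chromosome IV) both copies lie on the same one.

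Most ribosomal protein genes of budding yeast survive as pairs left by an ancient duplication of the whole genome, and the copies of a pair encode the same or nearly the same protein. Their transcription is driven mainly by Rap1, Fhl1 and Ifh1 and follows growth through the TOR and protein kinase A pathways, and many of the genes carry an intron. Because either copy can supply the protein, the division of RNA between A and B is a property of the pair that can differ from one protein to the next.

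The strain was BY4741, and all libraries came from cells that carried a low copy plasmid and grew for 4 h at 30 °C without uracil to an OD600 of 0.7. The control group carried the plasmid labelled POT1-ccdB. The WT group carried an mCherry reporter with the RPS3 promoter and the unmodified RPS3 terminator. The other 6 groups carried the same reporter with a modified terminator that has 3 insertion sites of 9 bp, and the 3 letters of a group's name give the inserts in order. N is a random sequence, A, H and T are short motifs, and the sources used here do not give the sequence behind G. The groups were modNNN, modNTN, modNAA, modNGG, modHNH and modHTH. The inserted motifs are shown because they are what sets the reporter groups apart, and the capitals mark the whole motif.
A: ATATTC
H: TTTCATTTC
T: TGTACAATA

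Each group had 2 libraries, but the second one held only 477 reads in modNGG, 267 in modHNH and 69 in modHTH, and these were left out. The 13 libraries used held 1070844 to 2939907 reads, so modNGG, modHNH and modHTH are known from 1 library each. Separate cultures are not stated in the labels for the replicates. A p-value below therefore weighs a group difference against the spread among these libraries only, and that spread may be technical. Among the genes that mark this strain by their deletion, URA3 and MET17 had 0 reads throughout and LEU2 had 0 to 2, while HIS3, which the strain lacks only in part, had 198 to 582. The a-cell genes STE2 and MFA2 had at least 728 and 1505 reads per library, and the alpha-cell gene STE3 had at most 20. The assay counts 5′-phosphorylated, polyadenylated fragments, many of them intermediates of decay, and not all messenger RNA of a gene. In such bulk samples fewer cells and less RNA per cell cannot be told apart.

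The 58 genes together took between 7.27% and 8.37% of all reads in each group, as a mean. Their summed share was 8.37% ± 0.21 of reads in control (SD, n = 2), 8.30% ± 0.48 in WT, 7.95% ± 0.66 in modNNN, 7.55% ± 0.06 in modNTN and 7.87% ± 0.14 in modNAA. The single libraries stood at 7.59% in modNGG, 7.27% in modHNH and 7.57% in modHTH. The control and WT groups held the highest values and modHNH the lowest, and the ranges of control, WT and modNNN overlapped.

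Within the family, levels were compared per length, as counts per 1e6 library reads (CPM) per kb of the deposited transcript span, introns included. RPL36B (YPL249C-A, chromosome XVI, 75699 to 76239) had the highest level at 4339 CPM per kb. RPL19B (YBL027W, chromosome II, 168423 to 169376) was also among the 3 highest, at 2720 CPM per kb. Both are the major copies of their pairs. The lowest levels were 4.03 CPM per kb for RPL21A (YBR191W, chromosome II, 606270 to 607140), 90.7 for RPL22B (YFL034C-A, chromosome VI, 64243 to 64932) and 115 for RPL7B (YPL198W, chromosome XVI, 173152 to 174702). All 3 are the minor copies of their pairs. Coordinates here and below are those of the R64 assembly in RefSeq.

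The division of reads within a pair was measured as the A share, the percentage of the pair's reads that fell on the A copy. It is given as a description, with no test. The A copy held more than 50% of reads in 18 pairs and the B copy in 11, as a mean over the 8 groups. In 21 pairs the same copy was the major one in all 13 libraries (A in 14 pairs, B in 7), and in 8 pairs the libraries lay on both sides of 50%. The major copy held over 75% of reads in 9 pairs, and 10 pairs lay between 40% and 60%. Paralogs share sequence, and the sources used here do not say how reads that match several genes were counted, so each share is uncertain by an amount that cannot be read from the counts.

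**Figure D1:**
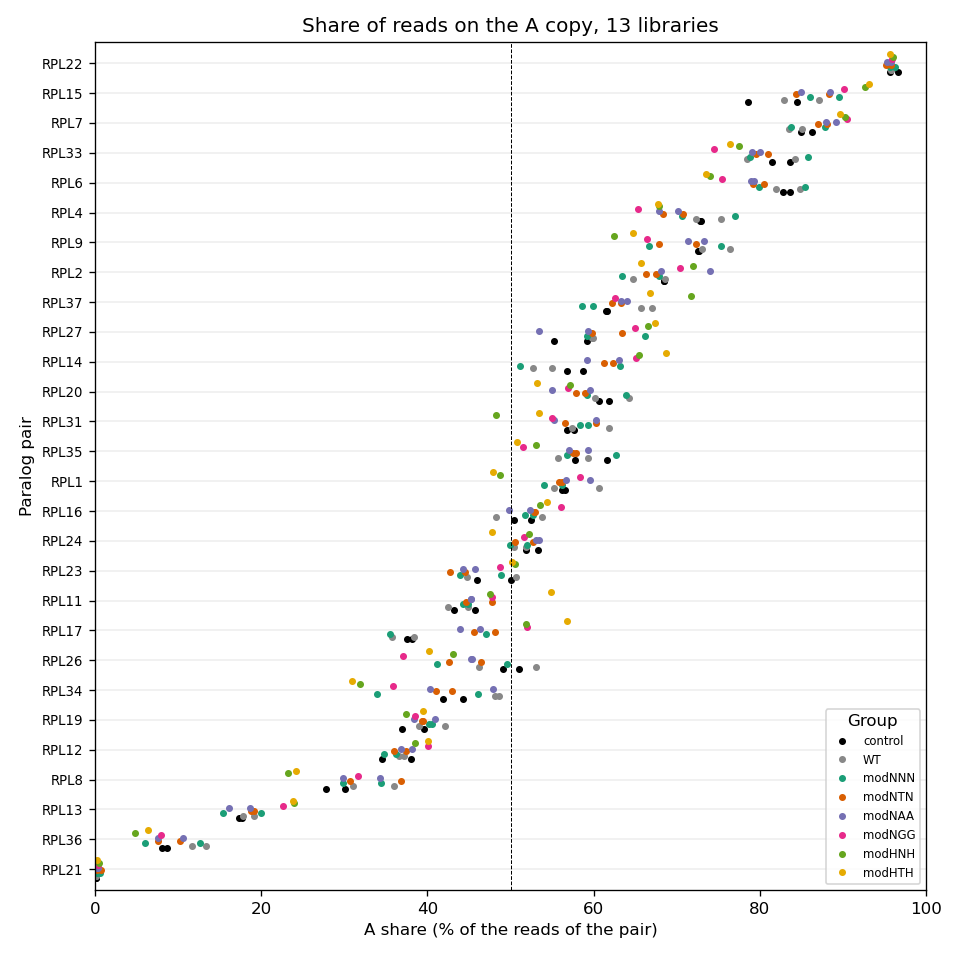
Share of each pair's reads on the A copy in percent (x axis) for 28 of the 29 pairs (y axis), with 1 point per library coloured by group and a dashed line at 50%. RPL22 lies at the A end, RPL21 and RPL36 at the B end, and the points of 8 pairs lie on both sides of the line.

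Among RPL4, RPL17, RPL26, RPL31 and RPL35, whose proteins line or surround the tunnel through which the new peptide leaves, RPL4 was the most one-sided. The mean A share was 70.0% for RPL4, 46.1% for RPL17, 44.4% for RPL26, 56.1% for RPL31 and 56.0% for RPL35. RPL4 and RPL35 kept A as the major copy in all 13 libraries, while RPL17, RPL26 and RPL31 had libraries on both sides of 50%. Rpl31 lies beside the tunnel exit, where a ribosome-bound chaperone docks, and its A share ran from 48.3% in modHNH to 61.8% in the first WT library.

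Of the proteins of the stalks and of the central protuberance, RPL1 and RPL11 were close to even and RPL12 was not. RPL1, whose protein forms the mobile stalk at the exit site for transfer RNA, had a mean A share of 54.8%, with the modHNH and modHTH libraries at 48.7% and 47.9% and the 11 others above 50%. RPL12, at the base of the other stalk where translation factors bind, lay at 37.7% with a library range of 34.6% to 40.1%, so B was the major copy throughout. RPL11, which contacts the smallest ribosomal RNA, lay at 46.8%, and its modHTH library at 54.9% was the only one above 50%.

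At the subunit interface and the catalytic centre the pairs differed from each other. RPL2, whose protein reaches the peptidyl transferase centre, had A as the major copy at 68.3% (63.4% to 74.0%). RPL19, part of a bridge to the small subunit, had B as the major copy, with an A share of 39.2% (36.9% to 42.1%). The pairs nearest to an even split were RPL24 at 51.4% and RPL23 at 47.5%. RPL24A and RPL24B (YGL031C and YGR148C, chromosome VII, 437467 to 437934 and 787312 to 787779) encode a bridge protein, and the libraries ran from 47.8% to 53.4%. RPL23A (YBL087C, chromosome II, 59822 to 60739) and RPL23B (YER117W, chromosome V, 396769 to 397653) encode a protein at the binding site of the assembly factor Tif6, and their libraries ran from 42.7% to 50.7%.

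The strongly one-sided pairs were among the remaining proteins, which bind ribosomal RNA on the body and surface of the subunit. Among the 4 highest mean A shares were 95.8% for RPL22, 87.9% for RPL15 and 87.8% for RPL7. RPL22A (YLR061W, chromosome XII, 263194 to 263948) varied least of these, between 95.2% and 96.7% over the libraries. RPL22B is the minor copy, and the Rpl22 protein is known to hold back splicing of its own B transcript. RPL15A (YLR029C, chromosome XII, 201976 to 202590) held 78.6% to 93.2% of its pair's reads and RPL7A (YGL076C, chromosome VII, 364335 to 365996) 83.6% to 90.4%. RPL6 and RPL33 also had A as the major copy, with mean shares of 78.9% and 79.3%. More even pairs of this class were RPL9 at 69.3%, RPL37 at 64.3%, RPL27 at 62.1%, RPL14 at 61.4%, RPL20 at 58.5% and RPL16 at 52.8%. RPL34, at 39.5%, had B as the major copy in all 13 libraries.

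The 4 lowest mean A shares were 0.320% for RPL21, 8.42% for RPL36, 20.1% for RPL13 and 29.9% for RPL8. RPL36A (YMR194W, chromosome XIII, 651145 to 651910) held 4.87% of the pair's reads in modHNH and 13.4% in the first WT library, its lowest and highest values. RPL13A (YDL082W, chromosome IV, 308424 to 309388) held 15.4% to 23.9% and RPL8A (YHL033C, chromosome VIII, 35255 to 36025) 23.3% to 36.8%. B was the major copy of these 4 pairs in all 13 libraries. RPL13A's transcript is covered on the opposite strand by those of RPS16B and RPP1A. That of RPL13B is overlapped over 39.6% of its length, also on the opposite strand, by that of RPS16A. RPL36A's is overlapped over 49.8% of its length on the same strand by that of MRPL24. The sources used here do not say whether the counting used strand.

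The RPL21A row shares most of its place in the genome with another row. RPL21A had 2 to 15 reads per library, against 1397 to 3878 for RPL21B (YPL079W, chromosome XVI, 406636 to 407539). The transcript of another row, YBR191W-A, overlaps 892 nt of the RPL21A transcript on the same strand, which is 94.5% of it, and that row held 51 to 441 reads. With those reads counted as RPL21A, the mean A share was 8.10% and the libraries ran from 3.26% to 12.1%. B remained the major copy in every library under both counts. Same-strand overlaps with other transcripts touched 18 of the 58 members, and they covered more than 20% of the transcript in 7. These were RPL2B, RPL6A, RPL11B, RPL12B, RPL21A, RPL35A and RPL36A. ARF1, which overlaps 38.9% of the RPL35A transcript, held 1149 to 3417 reads, against 1144 to 3469 for RPL35A.

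Length moved some shares. Per kb of transcript span, the A share was 49.1% in place of 69.3% for RPL9, 60.0% in place of 46.8% for RPL11, 59.1% in place of 47.5% for RPL23 and 46.7% in place of 56.0% for RPL35, so the major copy differed in these 4 pairs. Per kb of gene span from start to stop codon, no pair changed its major copy.

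The libraries of 1 group differed by more than counting error. The SD of the A share within groups of 2 libraries had a median of 2.48 percentage points over the 29 pairs, against a median counting SD of 0.691, and it exceeded the counting SD in 28 pairs. The modNNN group was the most variable, with the largest SD of the 5 groups in 16 pairs and a median SD of 3.26 points, against 0.946 in control. The range between the highest and lowest group mean had a median of 8.97 points and exceeded 3 times the within-group SD in 22 pairs. In 28 pairs the highest or the lowest group mean was that of a single library. Whether the groups differ in these shares was not tested. A mean of 1 library varies more than a mean of 2, and the 3 single libraries held 24 of the 58 lowest and highest library values (41.4%), being 23.1% of the libraries. The modHTH library held 13 of these extremes, the first WT library 10 and the first modNNN library 8.

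**Figure D2:**
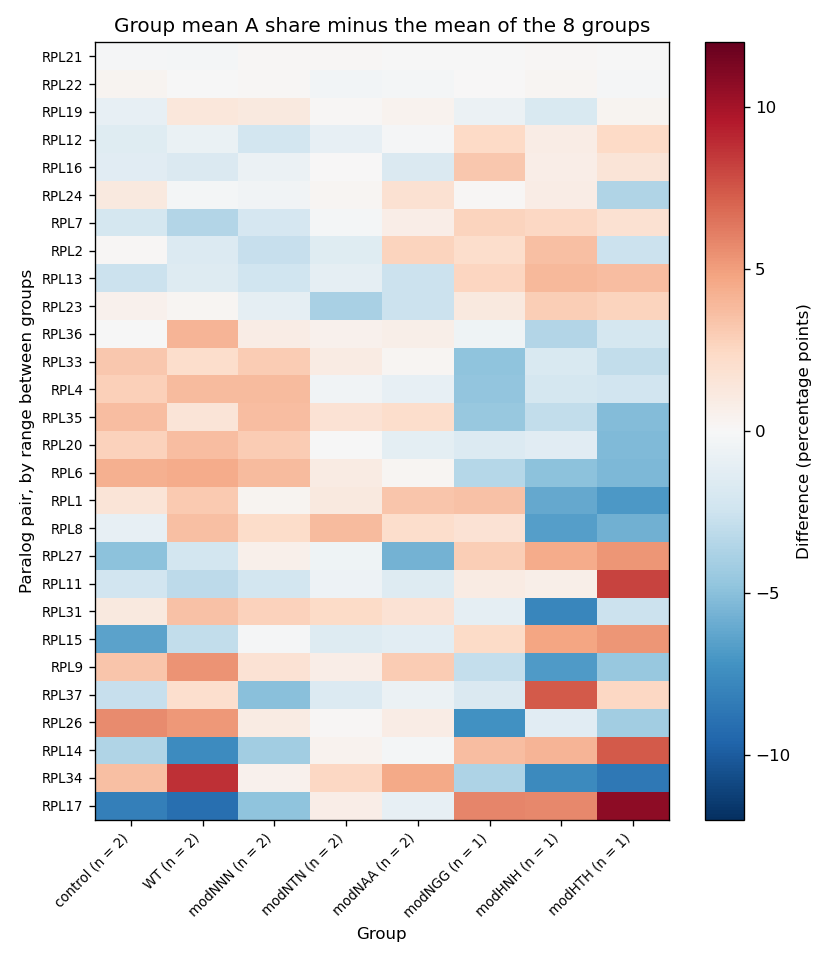
Difference between each group's mean A share and the mean of the 8 groups, in percentage points (colour), for 28 of the 29 pairs (y axis, by range between groups) and the 8 groups (x axis, with the number of libraries). The deepest colours lie in the rows of RPL17, RPL34 and RPL14 at the bottom, while RPL21 and RPL22 at the top are nearly blank.

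RPL17 had the largest range between group means, 19.8 points. RPL17A (YKL180W, chromosome XI, 109269 to 110129) and RPL17B (YJL177W, chromosome X, 90786 to 91657) encode a protein that lines the narrow part of the exit tunnel. The A share was 37.5% and 38.2% in the control libraries, 35.7% and 38.3% in WT, 35.5% and 47.0% in modNNN, 45.5% and 48.2% in modNTN, and 46.3% and 43.9% in modNAA. The single libraries gave 51.9% in modNGG (95% Clopper-Pearson interval 50.4% to 53.5%), 51.8% in modHNH (49.8% to 53.9%) and 56.8% in modHTH (54.8% to 58.8%). These intervals, like all here, cover counting error only. The control and WT libraries and the first modNNN library lay below 40%, and all others lay above it.

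RPL34, RPL14 and RPL26 had the next largest ranges, 17.4, 14.9 and 12.9 points. For RPL34A (YER056C-A, chromosome V, 269423 to 270185) the A share was 41.9% and 44.3% in control, 48.6% and 48.1% in WT, 46.1% and 33.9% in modNNN, 42.9% and 41.0% in modNTN, 40.3% and 47.9% in modNAA, 35.8% in modNGG, 31.9% in modHNH and 30.9% in modHTH. The 3 single libraries and the second modNNN library lay below all others. For RPL14A (YKL006W, chromosome XI, 431906 to 432720) it was 56.8% and 58.7% in control, 52.7% and 54.9% in WT, 51.2% and 63.1% in modNNN, 61.3% and 62.3% in modNTN, 63.1% and 59.2% in modNAA, 65.1% in modNGG, 65.4% in modHNH and 68.7% in modHTH. Here the 3 single libraries lay above all others. RPL26 ran from 37.1% in modNGG to 50.1% ± 1.4 in control (SD, n = 2), with WT at 49.6% ± 4.9 and modNNN at 45.4% ± 6.0. In RPL17, RPL34 and RPL14 the 2 modNNN libraries differed by more than those of any other group, with the first near WT and the second nearer the single libraries.

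The least variable pairs were RPL21, with a range of 0.38 points between group means, and RPL22, with 0.69. Both shares lie near an end of the scale. The RPL21 range rests on 2 to 15 reads of RPL21A per library. With the YBR191W-A reads counted as RPL21A, the libraries ran from 3.26% to 12.1%. RPL37, singled out after its values were seen, had a range of 12.4 points with an SD within groups of 0.72, below its counting SD of 0.872. Its A share was 59.3% ± 0.91 in modNNN, 61.6% ± 0.07 in control, 62.7% ± 0.81 in modNTN, 63.6% ± 0.49 in modNAA and 66.3% ± 0.91 in WT (SD, n = 2 each). The single libraries gave 62.6% in modNGG, 66.8% in modHTH and 71.7% in modHNH (95% interval 69.5% to 73.8%), the highest of all.

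Each gene's own reads were then compared between groups with edgeR's quasi-likelihood test on all 13 libraries, with Benjamini-Hochberg adjustment over the 5268 host genes that passed the filter on low counts, the 58 members among them. A gene was called at an adjusted p below 0.05. No member was called in any of the 8 tests, and few genes of any kind were. In the test for any difference among the 8 groups 0 of 58 members and 0.019% of all genes were called. DESeq2 called 8 members there (13.8%, against 8.02% of the genes to which it gave an adjusted p), and at an unadjusted p under 0.05 the edgeR counts were 15 members (25.9%) and 1012 genes (19.2%). In the test of the 7 reporter groups against control 0 members and 0.38% of all genes were called. DESeq2 called 1 member there, RPL17B (1.72%, against 1.89% of genes), and at an unadjusted p under 0.05 edgeR had 13 members (22.4%) and 958 genes (18.2%). The counts depended on single libraries. For any difference edgeR called 13 members without the second modNNN library (22.4%, against 12.3% of all genes), 9 without the first (15.5%, against 7.79%) and 2 without the second WT library (3.45%, against 1.61%). Against control it called 4 members without the first modNNN library (6.90%, against 5.72% of all genes), 3 without the first WT library (5.17%, against 2.47%) and 1 without the second modNNN library (1.72%, against 1.46%).

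In the 6 comparisons between reporter groups edgeR called 0 members each and DESeq2 also 0. The share of all genes called was 0.019% for modNNN against WT, 0% for modNTN, 0% for modNAA, 0% for modNGG and 0% for modHNH, each against modNNN, and 0.0569% for modHTH against modNNN. At an unadjusted p under 0.05 edgeR had 2 members (3.45%, against 5.41% of all genes) for modNNN against WT, 1 (1.72%, against 1.92%) for modNTN and 0 (against 6.21%) for modNAA. It had 7 (12.1%, against 14.4%) for modNGG, 12 (20.7%, against 15.8%) for modHNH and 14 (24.1%, against 19.5%) for modHTH. For modNGG, modHNH and modHTH the fit takes the spread of the 1 library from that of the duplicated groups. The 5 comparisons with modNNN share its 2 libraries. For modNGG, modHNH and modHTH more members were called without the second of them, but not without the first. Calls over all genes also rose without the second and not without the first. Leaving out either library sets 1 library against 1 in these comparisons. The fit then takes all of the spread from other groups. Why the counts depended on which library was left out was not tested.

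Most members had slightly lower fitted values in the reporter groups than in control. The log2 fold change was negative in 43 members and positive in 15, with a median of -0.14, beside a median of 0.02 over all genes tested. The median of the members was -0.09 for modNNN against WT, and against modNNN it was -0.11 for modNTN, -0.05 for modNAA, -0.05 for modNGG, -0.15 for modHNH and -0.02 for modHTH, beside all-gene medians no further from 0 than -0.01. These medians depended on single libraries. Without the first modNNN library they were 0.01 for modNTN, 0.04 for modNAA, -0.01 for modNGG, -0.07 for modHNH and 0.01 for modHTH, and without the second they were -0.15, -0.12, -0.05, -0.16 and -0.09. For modNNN against WT the median was 0.01 without the first WT library, -0.16 without the second, -0.16 without the first modNNN library and -0.01 without the second. Against control it stayed between -0.18 and -0.10 with any 1 library left out. The A copies had a median of -0.15 and the B copies -0.13 in the reporter groups against control. RPL21A had a value of 1.86 for modNNN against WT, on its 2 to 15 reads.

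**Figure D3:**
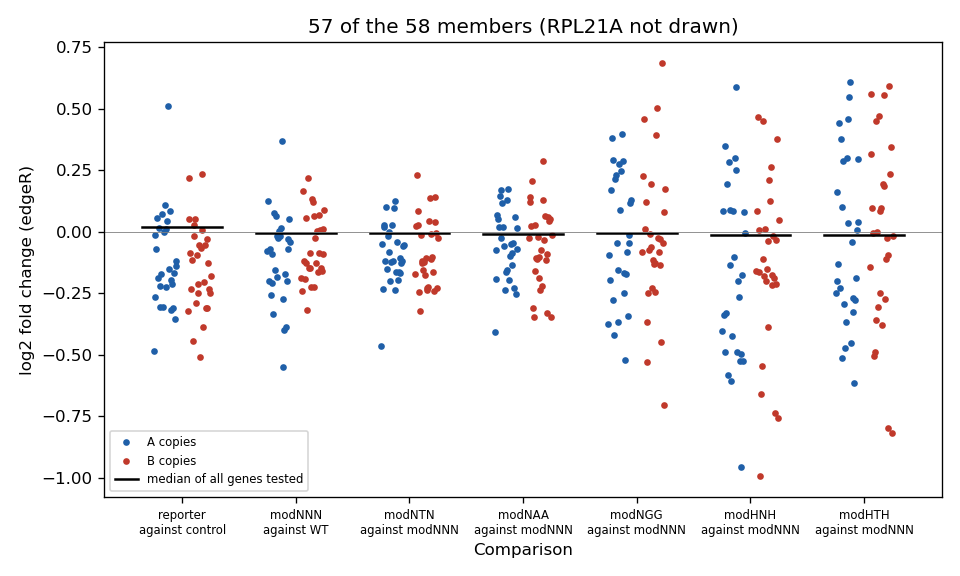
log2 fold change from edgeR (y axis) of 57 members in each of 7 comparisons (x axis), with A copies in blue, B copies in red and a bar at the median of all 5268 genes tested. RPL21A, with 2 to 15 reads per library, is not drawn. The points spread most in the 3 comparisons that rest on a single library, from -0.99 to 0.59 for modHNH, and none of the members passed the test.

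RPL15A had the smallest p of any member in the test over the 8 groups (adjusted p = 0.081, edgeR). Its protein is needed early in assembly of the subunit. The gene stood at 808 and 777 CPM in control, 908 and 761 in WT, 864 and 1309 in modNNN, 975 and 924 in modNTN, 1096 and 855 in modNAA, 1296 in modNGG, 1612 in modHNH and 1599 in modHTH. The modHNH and modHTH libraries were higher than all others, with the second modNNN library and modNGG next. The log2 fold change of the reporter groups against control was 0.51 (SE 0.16, adjusted p = 0.13, edgeR). RPL15B (YMR121C, chromosome XIII, 509734 to 510348), its minor copy, had a value of -0.39 (SE 0.14, adjusted p = 0.17, edgeR) in the same test.

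RPL7B, the minor copy of a pair whose protein binds ribosomal RNA in early assembly, was next (adjusted p = 0.094 over the 8 groups, edgeR). It stood at 225 and 239 CPM in control, 280 and 278 in WT, 316 and 213 in modNNN, 245 and 219 in modNTN, 194 and 234 in modNAA, 158 in modNGG, 154 in modHNH and 144 in modHTH. The 3 single libraries lay below all 10 others. Against modNNN the log2 fold change was -0.70 (SE 0.22) for modNGG, -0.76 (SE 0.23) for modHNH and -0.82 (SE 0.24) for modHTH, with adjusted p of 0.22, 0.20 and 0.12 (edgeR). Without the second modNNN library, which leaves single libraries on both sides, the log2 fold changes were -0.95, -1.01 and -1.07. These values rest on the first modNNN library, at 316 CPM the highest library for this gene. The second, at 213 CPM, lay closer to the single libraries.

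RPL37B (YDR500C, chromosome IV, 1450198 to 1450853), whose small protein binds zinc, had an adjusted p of 0.11 over the 8 groups (edgeR). It stood at 584 and 678 CPM in control, 918 and 703 in WT, 846 and 659 in modNNN, 678 and 624 in modNTN, 599 and 647 in modNAA, 569 in modNGG, 371 in modHNH and 510 in modHTH. The modHNH library was the lowest, followed by modHTH, and against modNNN its log2 fold change was -0.99 (SE 0.23, adjusted p = 0.19, edgeR). RPL37A (YLR185W, chromosome XII, 522663 to 523288) stood at 934 and 1089 CPM in control and 1758 and 1426 in WT, and modNNN against WT gave -0.55 (SE 0.18, adjusted p = 0.83, edgeR).

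RPL34A, the minor copy of its pair, had an adjusted p of 0.14 over the 8 groups (edgeR). It stood at 1459 and 1586 CPM in control, 1815 and 1811 in WT, 1805 and 1103 in modNNN, 1383 and 1302 in modNTN, 1307 and 1629 in modNAA, 1058 in modNGG, 953 in modHNH and 982 in modHTH. The 3 single libraries were the lowest, and the second modNNN library came next. Without either modNNN library edgeR called RPL15A, RPL7B, RPL37B and RPL34A over the 8 groups. RPL34B (YIL052C, chromosome IX, 256226 to 257063) stayed between 1770 and 2191 CPM over all 13 libraries.

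RPL17B had the smallest p of any member in the reporter groups against control. It stood at 1533 and 1363 CPM in control, 1448 and 1265 in WT, 1376 and 971 in modNNN, 1065 and 992 in modNTN, 1071 and 1217 in modNAA, 964 in modNGG, 881 in modHNH and 870 in modHTH. The control libraries overlapped with those of WT and modNNN and lay above the rest. The log2 fold change was -0.51 (SE 0.13, adjusted p = 0.078, edgeR), and over the fits without 1 library it ran from -0.61 to -0.42. RPL17B was called by DESeq2, by edgeR with a replicate block, and in some edgeR fits without 1 library. RPL17A ran from 758 CPM in the first modNNN library to 1143 in modHTH, where RPL17B was lowest.

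Further members, singled out after their values were seen, had fitted differences of like size that did not pass the test. Both copies of RPL23 had lower values in the reporter groups than in control, with a log2 fold change of -0.49 (SE 0.16) for RPL23A and -0.44 (SE 0.14) for RPL23B, each with an adjusted p of 0.14 (edgeR). RPL23A stood at 2898 and 2322 CPM in control, 2985 and 1809 in WT, 2550 and 2067 in modNNN, 1724 and 1705 in modNTN, 1871 and 1695 in modNAA, 1734 in modNGG, 1714 in modHNH and 1874 in modHTH. The first WT library lay above both control libraries and the second below them, and the WT pair spanned the values of control and modNNN. RPL23A and RPL23B were called against control without the first WT library, and RPL23B also without the first modNNN library.

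The minor copies did not share a direction. RPL18B (YNL301C, chromosome XIV, 63570 to 64562) stood at 354 and 358 CPM in control, 459 and 305 in modNNN, 273 in modNGG, 225 in modHNH and 211 in modHTH, and modHTH against modNNN gave a log2 fold change of -0.80 (SE 0.24, adjusted p = 0.12, edgeR). RPL36A gave -0.95 for modHNH against modNNN (SE 0.33, adjusted p = 0.22, edgeR), and the 2 modNNN libraries themselves stood at 508 and 242 CPM. RPL33B (YOR234C) gave a positive value for modNGG against modNNN, 0.69 (SE 0.21, adjusted p = 0.22, edgeR), and RPL6B (YLR448W) gave 0.56 for modHTH against modNNN (SE 0.18, adjusted p = 0.14, edgeR). The highest and lowest of these values all came from comparisons with a single library.

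**Figure D4:**
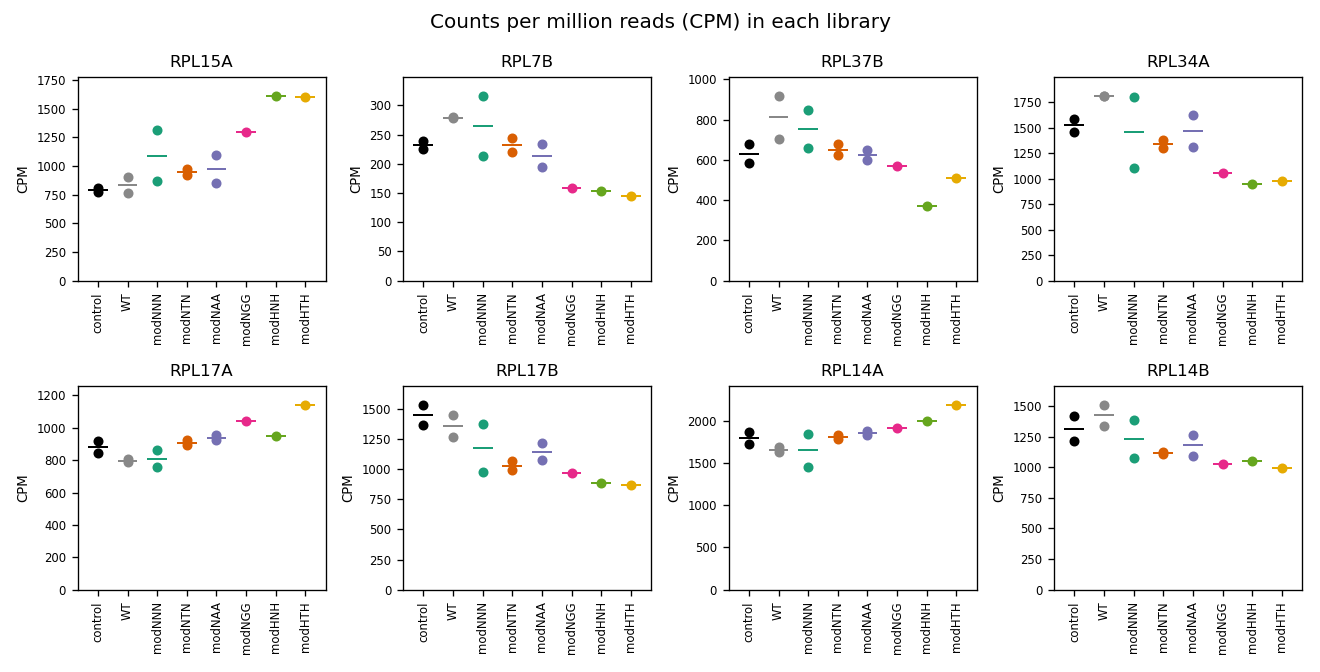
Reads as CPM (y axis, from 0) of 8 members in the libraries of each group (x axis), with 1 point per library and a bar at the group mean. RPL15A is highest in modHNH and modHTH, RPL7B and RPL34A are lowest in the 3 single libraries, and in modHTH RPL17A is highest and RPL17B lowest.

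The genes that work beside the pairs were not called either. Of 23 other large-subunit ribosomal proteins, 11 regulators of ribosomal protein gene transcription and 9 dedicated chaperones and loading factors, edgeR called 0 in each of the 8 tests. Against control, 2, 2 and 1 of them were at an unadjusted p under 0.05, and the log2 fold change was positive in 9, 9 and 5. FHL1, a transcription factor of ribosomal protein genes, had the smallest p, with a log2 fold change of 0.59 (SE 0.15, adjusted p = 0.078, edgeR). RPP1A, a protein of the acidic stalk, had -0.29 (SE 0.11, adjusted p = 0.18, edgeR), and RPL40B, whose protein is made as a fusion with ubiquitin, -0.33 (SE 0.13, adjusted p = 0.18, edgeR). TOR1, a kinase that couples growth to nutrients, had 0.42 (SE 0.17, adjusted p = 0.19, edgeR).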

How the data were processed

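HT-5PSeq, which sequences RNA with a 5′ phosphate, gave the deposited table of whole-number read counts per gene, not normalized by the authors. The submitters' processing notes name HISAT2, featureCounts and SAMtools, beside cutadapt, FastQC, MultiQC and bedtools, and the build sacCer3 (R64); the sources used here give no versions for them, and the annotation's header names rtracklayer 1.42.1. Whether duplicate reads were collapsed is not given either. Members and gene lists were chosen with earlier results of these data known.

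Libraries under 1000 reads were left out. The remaining 13 held 1070844 to 2939907 reads. Of the 5696 host rows, 5550 matched a RefSeq symbol. Counts were tested in edgeR 4.0.16 (TMM, filterByExpr, quasi-likelihood, R 4.3.3), where the design held the group alone. The fit was checked on simulated data for the reporter groups against control and for modNAA against modNNN only. The test over the 8 groups and the comparisons of a single library with modNNN were not simulated. DESeq2 1.42.0, RLE size factors, library totals, no filter, all 16 libraries, the 5 groups with 2 libraries, a replicate block and leaving out each library were alternatives. CPM used all reads of a library. A shares were averaged over group means, with SciPy 1.17.1 for 95% Clopper-Pearson intervals.

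If no member was called, the text names the 4 with the smallest p over the 8 groups. It also names the 4 highest, 4 lowest and 2 most even A shares, the 4 pairs that range most and 2 least between groups, the 3 highest and 3 lowest genes per kb, and 4 genes of the lists. Members named beyond these were chosen after their values were seen. The values of 1 gene and of its pair's A share are not reported here. Protein identity within pairs was not analysed here. Position tables were not used.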

Additional observations from a re-analysis of the deposited data

How the results depend on the processing

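Over the 20 alternative fits, 139 of 154 counts of called members were 0, as with the edgeR fit on 13 libraries. For any difference among the 8 groups the count was 1 with library totals (1.72%, against 1.01% of all genes). With DESeq2 it was 8 (13.8%, against 8.02% of the genes given an adjusted p). With all 16 libraries it was 3 (5.17%, against 17.6% of all genes). For the reporter groups against control it was 1 with DESeq2 (1.72%, against 1.89%) and 1, RPL17B, with a replicate block (1.72%, against 1.29%). With 1 library left out it ran from 0 to 5 for modNGG, 0 to 12 for modHNH and 0 to 11 for modHTH against modNNN, and with all 16 libraries it was 1 for modHTH. With 1 library left out, the counts for modNGG, modHNH and modHTH against modNNN rose only without the second modNNN library. They did not rise without the first, though leaving out either sets 1 library against 1. Calls over all genes rose in the same fits, so the rise was not limited to the members. The cause was not tested. With all 16 libraries, the 1 member called for modHTH was 1.72% of members, against 4.90% of all genes. Counts over all genes moved too. For any difference 1 gene was called, against 234 with DESeq2 (8.02%), 915 with all 16 libraries (17.6%) and 53 with library totals (1.01%). The count was 73 without a filter and 4 with a replicate block. Against control 20 were called, against 57 with DESeq2, 288 with all 16 libraries and 61 without a filter. With library totals 24 were called and with a replicate block 68. For modHTH, modHNH and modNGG against modNNN 3, 0 and 0 were called, against 255, 152 and 84 with all 16 libraries and 51, 0 and 1 with DESeq2. These counts also changed when 1 library was left out. DESeq2 gave no adjusted p to 2349, 2247 and 3268 genes in the tests for any difference, against control and for modHTH. Whether the replicate numbers pair the libraries was not settled. Correlations of same-numbered deviations between the 5 groups with 2 libraries ran from -0.32 to 0.33, and the other groups could not be checked. The block changed the count of called members in no comparison other than that against control. The A copy was the major one in 18 pairs under every alternative, though RPL9, RPL11, RPL23 and RPL35 swapped sides per kb of transcript span. Reads per kb of gene span and the YBR191W-A count were chosen after seeing the data. With TMM library sizes the summed share was 8.68% in control, 7.40% in modNTN and 7.71% in modNAA, moves larger than the SD within those groups. With 1 or 2 libraries a group, small differences could not be resolved.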
